A study of Mus musculus with 12 samples.

Results

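Small RNA genes are the part of the Runx1b binding profile described here: all regions that the authors' deposited table assigned to a gene of biotype miRNA, snRNA, snoRNA, misc_RNA or rRNA. There were 307 such regions of 8133 in all (3.77%), assigned to 279 of the 5867 listed genes (4.76%), of which 82 were miRNA, 78 snRNA, 75 snoRNA, 32 misc_RNA and 12 rRNA genes. The profile came from mouse embryonic stem cells of strain 129 differentiated into haemogenic endothelium, the vessel-wall cells that give rise to blood. Embryoid bodies at d3.25 gave FLK1+ cells (FLK1 is a receptor of blood and vessel progenitors), which spent 2 days in liquid culture. Both lines used are runx1-/-. The line iDamko carries Dam, a bacterial adenine methylase, and the line iRunx1b::Damko carries Dam fused to Runx1b, one of the isoforms of Runx1, a transcription factor needed for blood formation. In DamID the fusion methylates GATC sequences near where it sits, and methylated fragments are sequenced. Each line had 6 libraries, 3 called biological replicates and 3 called technical replicates, and within each line FLK1 magnetic selection was used for 4 libraries and a flow cytometry sort (cKIT+ TIE2+ CD41-) for 2.

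The table holds 1 read count per gene, so replicate error cannot be given and the Dam control cannot be set beside a gene. Reads per kilobase (reads per kb), the authors' read count over the total length of a gene's regions, therefore describe signal within regions and are no enrichment over Dam, and the depth of each library is unknown. The 95% Poisson intervals given with them cover counting error of independent reads only. If PCR copies of a fragment were counted as separate reads, which could not be checked, the intervals are too narrow. Genes are not replicates of a condition, so biotypes were set side by side without a test, and nothing given here is shown to be particular to small RNA genes. Coordinates given are those of regions, and where a small RNA gene lies relative to its region was not read. Regions of the same gene can lie far apart, as for AC133891.1, with 52150 bp between its regions. The cell type could not be checked against its markers, since DNA and no expression was measured.

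MicroRNAs are short RNAs cut from hairpins that pair through their seed (bases 2 to 8) with messenger RNAs and lower their output. Many lie in introns of protein-coding genes or in long non-coding RNAs, their host genes, and several hairpins often share 1 transcript. Small nucleolar RNAs (snoRNAs) guide the chemical modification of ribosomal and spliceosomal RNA and in mammals are mostly cut from introns, often of genes for ribosomal proteins and translation factors. Small nuclear RNAs (snRNAs) such as U1, U2, U5 and U6 form the spliceosome, 7SK RNA holds the elongation factor P-TEFb inactive, and 5S rRNA is part of the large ribosomal subunit. U6, 7SK and 5S are read by RNA polymerase III and have many copies and pseudogenes, so reads of near-identical copies cannot be assigned with certainty, and the sources used here do not give how such reads were mapped.

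Of the 82 miRNA genes, 21 carried a microRNA name and 61 were clone-based gene models that have no other name in the table. All 21 names matched RefSeq, where some have newer symbols (Mir126 is Mir126a, Mir145 is Mir145a and Mir290 is Mir290a). The mature sequences below, from RefSeq (GRCm38.p6), belong to named microRNAs with a region and show which messages each could pair with. Capitals mark the seed, and each is written 5′ to 3′. The first 4 are endothelial, next come those of the 2 clusters on chromosome X, and the rest are microRNAs of single regions.
miR-126a-3p (chromosome 2): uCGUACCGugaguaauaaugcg
miR-23a-3p (chromosome 8): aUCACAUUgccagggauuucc
miR-27a-3p (chromosome 8): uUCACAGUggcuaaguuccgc
miR-24-3p (chromosome 8): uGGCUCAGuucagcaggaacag
miR-322-5p (chromosome X): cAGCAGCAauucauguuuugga
miR-503-5p (chromosome X): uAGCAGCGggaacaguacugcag
miR-363-3p (chromosome X): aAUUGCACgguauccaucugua
miR-130a-3p (chromosome 2): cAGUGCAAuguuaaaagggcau
miR-290a-5p (chromosome 7): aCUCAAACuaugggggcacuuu
miR-183-5p (chromosome 6): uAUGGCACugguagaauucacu
miR-425-5p (chromosome 9): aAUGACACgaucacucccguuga
miR-671-5p (chromosome 5): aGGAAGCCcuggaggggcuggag

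The sequences compared were 33 mature arms from RefSeq for 20 of the 21 genes, and no full seed was shared between any pair of these arms. Arms on chromosome 18 were left out, so Mir145 had none. Some genes, such as Mir126, Mir301b, Mir363 and Mir375, had only the 5p or only the 3p arm. A seed shared through an arm not compared would not be seen. The seed AGUGCAA of miR-130a-3p, for example, stands in 7 mature entries of the RefSeq table. Compared position by position, miR-322-5p and miR-503-5p share 6 of 7 seed bases, as do miR-23a-3p and miR-27a-3p, and in each of these pairs the genes have a region in common. MiR-183-5p shares 6 with miR-425-5p and 6 with miR-363-3p, and miR-425-3p shares 6 with miR-450b-3p, although these genes lie on different chromosomes. The seed AGCAGCA of miR-322-5p, that of the miR-15 and miR-16 family, stands in 11 mature entries of the RefSeq table.

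The widest of all 8133 regions lay at Mir126. MiR-126 is an abundant endothelial microRNA needed for vessel integrity, and it sits in an intron of Egfl7, a secreted factor of endothelial cells. The region, chr2:26434874-26453224 in mm9, spanned 18350 bp, ahead of 16750 bp for the next widest, at Plcg1 and Zhx3. It held 15069 reads, the most of any small RNA gene, at 821 reads per kb (808 to 834), a level above that of 66.6% of listed genes. The table assigned it also to Egfl7, to the gene model RP23-125H15.6 and to Agpat2, an enzyme of phospholipid synthesis. Egfl7 had 1 further region, 6100 bp away, with 6278 reads at 2058 reads per kb, so the signal per kb was higher there than in the wide region.

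The Mir23a cluster encodes miR-23a, miR-27a and miR-24, which are expressed in endothelium and blood cells. These 3 genes were listed, and Mir3074-2, which RefSeq places in the same cluster of 4 hairpins, was not. No partner gene (a protein-coding or lincRNA gene assigned the same region) was listed for the regions of the 3. The region chr8:86732198-86734348 was assigned to all 3, with 1923 reads at 894 reads per kb (854 to 935). A second region, chr8:86726498-86729048, was assigned to Mir23a alone and lay 3150 bp from the first. Subtracting the shared reads from those of Mir23a left it 4406 reads, or 1727 reads per kb. The cluster's larger signal thus lay in the region that it does not share. Listed genes on chromosome 8 had a median of 984 reads per kb, so Mir23a with both regions (1346) was 1.37 times that median and the shared region 0.909 times.

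Mir375, known for its role in pancreatic islets, had the highest value of the named microRNAs, 1369 reads per kb (1303 to 1437) over 1644 reads at chr1:74945763-74946963, with no partner gene and its nearest neighbour region, that of the neuronal transcription factor Fev, 14100 bp away. Mir145, a microRNA of smooth muscle, followed Mir23a with 1261 reads per kb (1210.3 to 1313) at chr18:61806108-61807958. Mir143, which RefSeq places in a cluster with it, had no entry of its own. RefSeq places both inside the gene Carmn, and no entry stood under that symbol. The nearest region to that of Mir145 lay 1900 bp away and was assigned to the gene model Gm16908. Both stood high in the table, with 93.4% of listed genes below Mir375 and 90.6% below Mir145.

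On chromosome X, 4 named microRNAs had a region. Mir322 and Mir503, which slow the cell cycle, shared chrX:50406786-50408336 with the long intergenic RNA C430049B03Rik, with 640 reads at 413 reads per kb (381 to 446). Mir450b, of the same RefSeq cluster of 7 hairpins, had a region of its own 6250 bp away with 526 reads per kb (499 to 555). Mir363, of the Mir106a cluster of 6, stood alone among its neighbours, with 831 reads at 1037 reads per kb (968 to 1110). These values must be read against the chromosome, whose 327 listed genes had a median of 160 reads per kb. Mir363 was 6.46 times that median and ranked 4 among the 327 genes, Mir450b 3.28 times and the shared region of Mir322 and Mir503 2.57 times. Which of the hairpins of a cluster gets a region follows the table's rule of assignment, which the sources used here do not give.

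Other named microRNAs with a partner gene were Mir707 with 1232 reads per kb (1187 to 1278), shared with Tbc1d17 and the mTORC1 component Akt1s1, and Mir301b with 1189 (1132 to 1249), shared with 2610318N02Rik. Mir1894 had 979 (946 to 1012), shared with Mrps18b and Ppp1r10, and Mir130a had 689 (668 to 710) over a region of 6000 bp shared with Ypel4, inside which RefSeq does not place it. MiR-130a, whose targets include anti-angiogenic homeobox genes, thus lay close to the median of all genes, 683 reads per kb. The lowest value of the 21 was 262 (242 to 284) at Mir671, shared with Chpf2, an enzyme of chondroitin synthesis, and Smarcd3, a subunit of the BAF chromatin remodeller. Only 6.95% of listed genes had less.

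The named microRNAs not yet described had no partner gene in the table, although RefSeq places Mir183 inside Mirc35hg and Mir425 inside Dalrd3. Mir183, a microRNA of sensory organs, had 721 reads per kb, Mir713 had 647 and Mir345 had 539. Mir425 had 499.7 and shared its region with the gene model CT010508.1. Mir290, the first hairpin of a cluster of 9 that marks embryonic stem cells, had 479 reads per kb (446 to 513), and Mir1953 had 469. All 4 values from 469 to 539 lay below the chromosome medians, at 0.664 to 0.854 times.

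**Figure D1:**
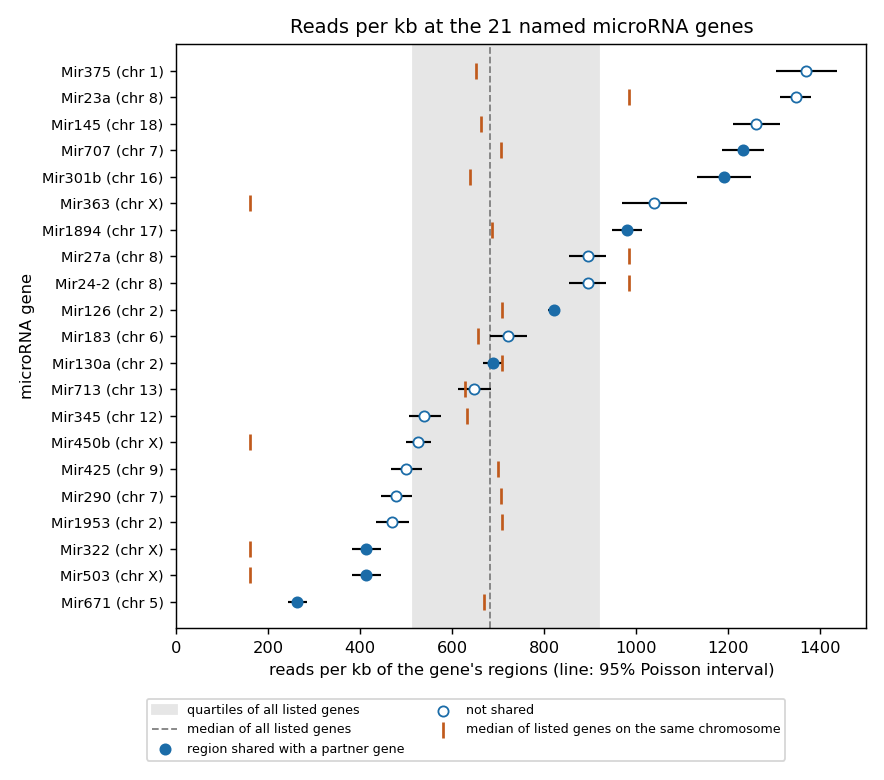
Reads per kb of the regions of each named microRNA gene (points, x axis) with the 95% Poisson interval of its read count (horizontal lines). Filled points share a region with a protein-coding or long intergenic RNA gene, orange ticks give the median of listed genes on the same chromosome, and the grey band and dashed line give the quartiles (515 and 918) and median (683) of all listed genes. Values run from 262 at Mir671 to 1369 at Mir375, and the 4 microRNAs on chromosome X stand right of their chromosome's tick.

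MicroRNAs known from particular cell types were counted in lists. Of 38 endothelial and vascular microRNAs 6 had an entry of their own (15.8%), whether or not its region was shared: Mir126, Mir23a, Mir24-2, Mir27a, Mir130a and Mir145. Of the 38, 36 were found in RefSeq under the symbol searched. Of 32 blood cell microRNAs it was 3 (9.38%), namely Mir322, Mir503 and Mir425, and of 12 stem cell microRNAs 1, Mir290. Of 9 muscle microRNAs and of 12 neuron and liver microRNAs it was 0. Beside these, 21 of 1228 microRNA genes in RefSeq (1.71%) had an entry under their own name, but the annotation behind the deposited table is of another date and this share is only a rough measure. The lists are short and hold clusters that share a region, and no test was made. The shares also depend on the list in which a microRNA was placed. Mir145, a microRNA of smooth muscle, stood in the vascular and not in the muscle list. Mir23a, Mir27a and Mir24-2, also expressed in blood cells, stood only in the endothelial list. Mir183 and Mir375 stood in no list.

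A microRNA without an entry may still lie in a gene with regions. By RefSeq positions, 353 of the 1228 microRNA genes (28.7%) lay inside a gene that was listed, 7 of them with an entry of their own. Containing genes were sought by current RefSeq symbol alone, so genes listed under an older symbol, such as Gnb2l1 for Rack1, were missed. This count and those below may therefore be too low. Counting only microRNAs without an entry, in the endothelial list there were 6: Mir10a in Hoxb3, Mir10b in Hoxd3, Mir21 in Vmp1, Mir199a-1 in Dnm2, and Mir199a-2 and Mir214 in Dnm3. In the blood cell list there were 9, among them Mir106b, Mir93 and Mir25 in the replication helicase gene Mcm7 and Mir15a and Mir16-1 in Dleu2. In the muscle list there were 3, in the neuron and liver list 1 and in the stem cell list 0. The builds differ, so how near any such microRNA lies to a region was not read.

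The 61 clone-based miRNA models ranged from 40.8 to 2125 reads per kb, with a median of 695 against 721 for the named microRNAs. The highest values in this biotype belonged to such models. Models are named here after their values were seen. AL591146.1 shared a region with Zfp207, a spindle assembly factor, at 2125 reads per kb. AL772271.5 shared 1 with Eng, the TGF-beta co-receptor of endothelium, at 1924. Between these values stood AC131596.1 with 2121 and AC113291.1 with 1931, neither with a partner gene. The other region of Eng had 806 reads per kb. Whether these models are true microRNAs cannot be told from the table.

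**Figure D2:**
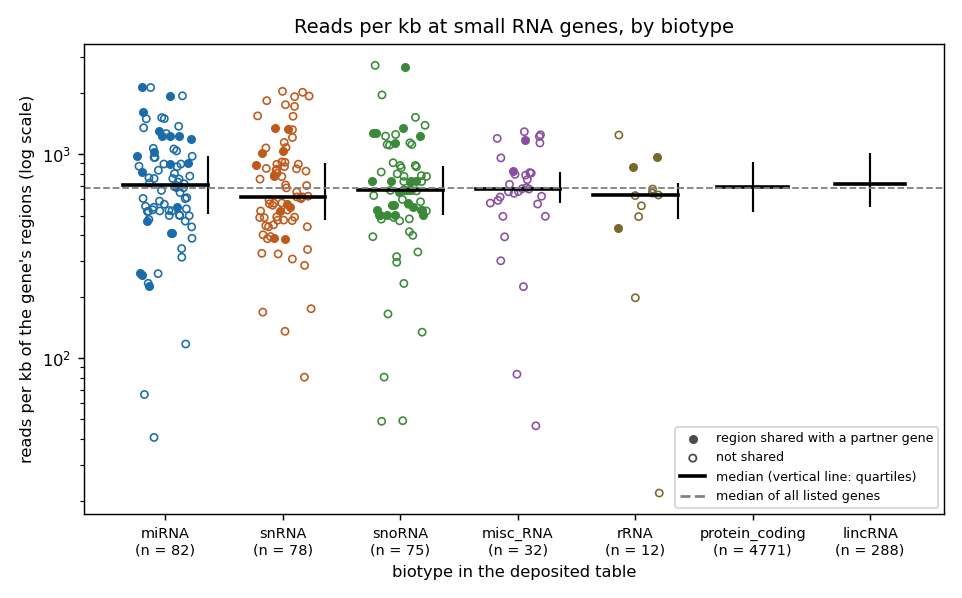
Reads per kb of each small RNA gene (log scale), by biotype, filled where its region is shared with a protein-coding or long intergenic RNA gene, with the median (thick line) and quartiles (vertical line). Protein-coding and lincRNA genes are given by median and quartiles only. The 5 medians run from 619 in snRNA to 705 in miRNA genes, all close to the dashed median of all genes, 683.

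The medians of the biotypes lay close together. The median was 705 reads per kb for miRNA genes (quartiles 508 and 978), 675 for misc_RNA (574 and 815), 664 for snoRNA (505 and 873), 628 for rRNA (479 and 721) and 619 for snRNA genes (474 and 907). Protein-coding genes had a median of 686 and lincRNA genes of 709.9. Each median had a wide order-statistic interval, 568 to 821 for miRNA and 561 to 805 for snRNA genes, so the order of the 5 is not resolved. Of the 279 genes 132 (47.3%, exact Clopper-Pearson interval 41.3 to 53.4%) lay above the median of all listed genes. The share was 53.7% in miRNA, 47.4% in snRNA, 46.9% in misc_RNA, 44.0% in snoRNA and 25.0% in rRNA genes (3 of 12). Small RNA genes are 4.76% of all listed genes. Among the 100 listed genes with the most reads per kb 11 were small RNA genes, 4 miRNA, 4 snRNA and 3 snoRNA. Among the 100 with the fewest 6 were. Of these 6, 4 lay on X or Y, as did 86 of the 100. Of the 279, 67 lay above the upper quartile of all listed genes and 78 below the lower.

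The median width of small RNA regions was 2050 bp (quartiles 1600.0 and 2800.0) against 2100.0 bp over all regions, and 16 of the 307 were wider than 5 kb, as were 419 of all 8133. The gap to the nearest other region had a median of 28.5 kb, compared with 26.05 kb over all regions. A single region was assigned to 239 of the 279 genes (85.7%), compared with 72.3% of all listed genes, 69.7% of protein-coding, 85.0% of processed_transcript and 90.3% of pseudogene entries. The gene with the most, 5, was a copy of 7SK on chromosome 12, with 13395 reads at 807 reads per kb.

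Among snRNA genes, 42 were U6, the catalytic RNA of the spliceosome, on 19 chromosomes, and 15 were U1, which recognises the 5′ splice site. U6 copies ranged from 80.6 to 2010 reads per kb (median 619) and U1 copies from 175 to 1540 (median 617). The 4 highest snRNA genes were a U2 copy assigned chr11:101518785-101520385 with 2031 reads per kb (1962 to 2102) and U6 copies on chromosomes 8, 15 and 17 with 2010, 1925 and 1913. A second U2 copy on chromosome 11, in a region shared with Rdm1, had 1015. The lowest were U6 copies on chromosome 1 with 135 and on chromosome X with 80.6. Copies of the same family thus lay both below the lower quartile of all listed genes, 515 reads per kb, and above the upper, 918. U5 copies lay in neighbouring regions on chromosome 9 with 1746 and 805 reads per kb. The 3 genes of U6atac and 8 of U7, RNAs of the minor spliceosome and of histone message processing, had medians of 492 and 562.

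Among snoRNA genes, 25 were named SNORA17, after an H/ACA family that guides pseudouridine formation, and they lay on 14 chromosomes. They ranged from 48.96 to 2723 reads per kb with a median of 626. The highest of all 279 small RNA genes was the SNORA17 copy assigned chr4:62466309-62468109, with 4905 reads at 2723 reads per kb (2648 to 2801). This copy had rank 19 of all listed genes and no partner gene. Next came a SNORA57 copy assigned chr8:113444198-113447848 with 2674 (2622 to 2728), a region shared with the sialyltransferase gene St3gal2 and the lincRNA Gm17642. The other 3 regions of St3gal2 had 1684 reads per kb. A copy of U3, which guides cleavage of the ribosomal precursor, had 1951 on chromosome 13, and SNORA31 had 1514 over 6800 bp on chromosome 17. The lowest were SNORA68 on chromosome 1 with 49.3 and a SNORA17 copy on chromosome X with 48.96.

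Several snoRNA genes were assigned together to 1 region with known snoRNA host genes. The region chr1:162963163-162967313 was assigned to SNORD24, SNORD44, SNORD74, SNORD75 and SNORD78, to Gas5, a non-coding RNA with snoRNAs in its introns, and to Zbtb37. It had 2097 reads at 505 reads per kb. The region chr4:131865159-131867659 was assigned to Snora16a, Snora44, Snora61 and Snord99 and to their lincRNA host Snhg12, with 1852 reads at 740.5. A region of 6050 bp held 3 SNORD36 genes with Rpl7a, a ribosomal protein gene, and with Surf1 and Surf2, at 532. Snord96a and SNORD95 shared a region with Gnb2l1, the gene of the ribosomal scaffold RACK1, at 1263 reads per kb, and Snord100 and SNORD101 with the ribosomal protein gene Rps12 at 564. Single snoRNA genes shared a region with Nop56 (Snord110, 667), a core protein of the C/D snoRNA complex, with Rpl12 (Snora65, 664) and with Snhg4 (SNORA74, 663). Genes listed for the same region carry the same reads, so a cluster of 5 snoRNAs is 1 measurement and not 5.

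In all, 12 regions held 2 or more small RNA genes, 31 genes together. Besides those named, Snord118, the U8 RNA of ribosome processing, and a U6 copy shared a region with Tmem107 at 1342 reads per kb. SNORA57 and the model AC129217.1 shared 1 with 1810009A15Rik at 1233, and AC087117.2 and AC087117.3 shared 1 at 1114 with a processed transcript. U7 and SNORA11 shared 1 with Wdyhv1 at 547.

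**Figure D3:**
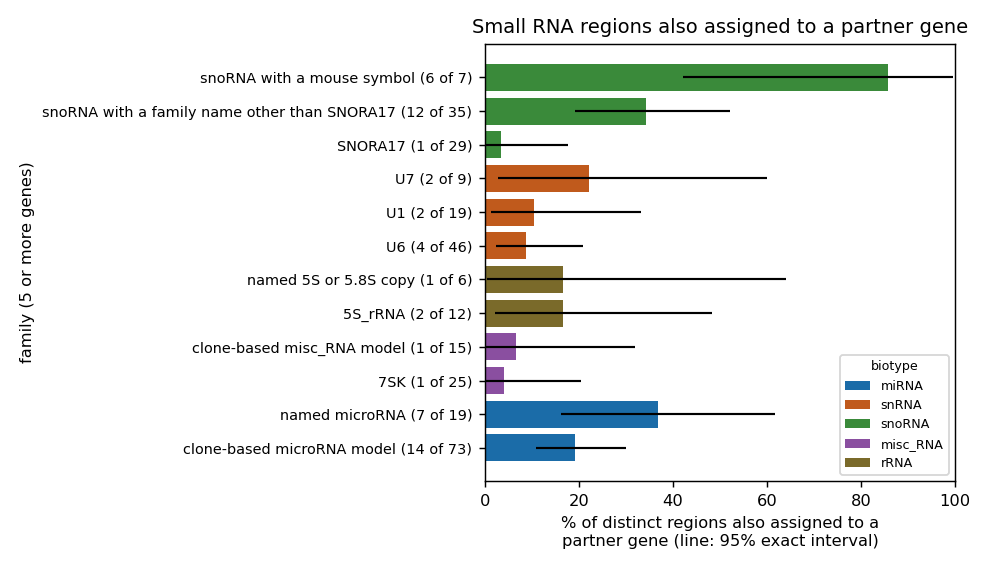
Share of the distinct regions of each small RNA family of 5 or more genes that are also assigned to a protein-coding or lincRNA gene, here called a partner gene (bars, in percent), with exact 95% Clopper-Pearson intervals (lines) and colours for the biotype. Among snoRNA genes the bar falls from 85.7% for those with a mouse gene symbol to 3.45% for SNORA17.

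A partner gene is a protein-coding or lincRNA gene to which the same region was assigned, whether or not the small RNA lies inside it. Of the 307 regions 52 (16.9%, 12.9 to 21.6%) had a partner, 43 of them to a protein-coding gene, 11 to a lincRNA and 2 to both, and 254 were assigned to no gene outside the small RNAs. For comparison, 22 of 223 pseudogene regions and 139 of 386 processed_transcript regions had a protein-coding or lincRNA partner. By small RNA biotype the share was 24.3% of snoRNA regions (17 of 70), 23.1% of miRNA (21 of 91), 16.7% of rRNA (3 of 18), 13.6% of snRNA (12 of 88) and 4.65% of misc_RNA regions (2 of 43). Within snoRNA genes the distinct regions were also counted by kind of name, without a test. Those with a mouse gene symbol had a partner in 6 of 7 regions (85.7%, 42.1 to 99.6%), those with a family name other than SNORA17 in 12 of 35 (34.3%, 19.1 to 52.2%) and SNORA17 copies in 1 of 29 (3.45%, 0.0873 to 17.8%), with Zbtb40. Regions of named microRNAs had a partner in 7 of 19 cases and those of clone-based models in 14 of 73.

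All 67 genes with a partner had a single region, and none of the 40 genes with 2 or more regions had a partner. Genes with a partner had a median of 740.5 reads per kb (quartiles 532 and 1082) and those without had 649.8 (488 and 879.5), and the quartiles of the groups overlapped. Genes that share a region were each counted, so the 67 genes are 52 measurements. The medians with and without a partner were 899 and 655.5 in miRNA and 783 and 617 in snRNA genes. In snoRNA genes they were 663.9 and 664.0, in misc_RNA 1003 and 665 (2 genes with a partner) and in rRNA 862 and 626 (3 with). Of the genes on X and Y only Mir322 and Mir503 had a partner. The median width was 2700.0 bp for regions with a partner and 1950.0 bp for those without, and the part of width in the sharing was not tested. There were 64 partner genes, 54 protein coding and 10 lincRNA. In the 20 partners that also had other regions, the region shared with the small RNA had more reads per kb than the others in 11 and fewer in 9. It was higher in Eng (1924 against 806) and St3gal2, and lower in Egfl7 (821 against 2058) and in the cytoskeletal linker gene Plec (778 against 1785, with a U6 copy).

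Among misc_RNA genes 17 were 7SK copies, from 46.5 to 1288 reads per kb with a median of 642. The highest 7SK copy was assigned the region chr11:57774935-57776985. Next in this biotype came the models AC124489.1 and AC122546.1 with 1244 and 1221, and the gene Telomerase-vert, named for the vertebrate telomerase RNA family, with 1194 (1139 to 1252) at chr3:96216652-96218102. The lowest were 7SK copies on chromosome X, with 83.3 and 46.5. Among rRNA genes, 7 were listed as 5S_rRNA and 5 as other 5S or 5.8S copies. The highest were 5S copies on chromosome 18 with 1241, on chromosome 9 with 965 (9250 bp, shared with 1110036E04Rik) and on chromosome 1 with 862, shared with Lbr, the lamin B receptor gene. They were followed by n-R5s34 with 674 over 11000 bp. The lowest were a 5S copy on chromosome X with 197 and n-R5s1 on chromosome Y, with 12 reads at 21.8 reads per kb (11.3 to 38.04).

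**Figure D4:**
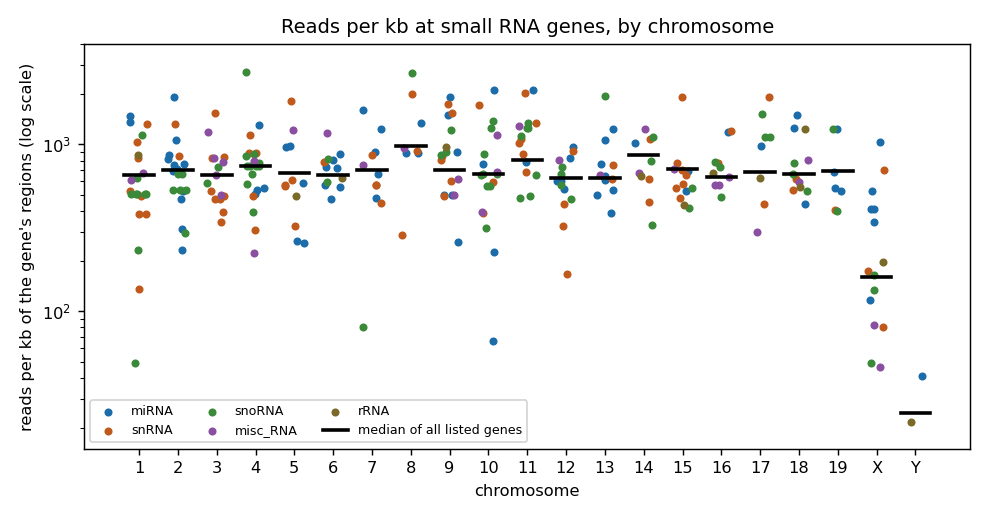
Reads per kb of small RNA genes (points, log scale) by chromosome, coloured by biotype, with the median of all listed genes on each chromosome (black lines). The black lines of X and Y stand lowest, and 13 of the 15 points on X and both on Y lie under the median of all listed genes, 683, the others being Mir363 and a U6 copy.

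Low values were frequent on the sex chromosomes. The 262 autosomal small RNA genes had a median of 675 reads per kb, the 15 on chromosome X a median of 175 (46.5 to 1037), and the 2 on chromosome Y had 21.8 and 40.8. Other listed genes had medians of 704 on autosomes, 160 on X and 24.5 on Y, so the same order of chromosomes stood in the genes of other biotypes. On X only Mir363 and 1 U6 copy (706) lay above the median of all listed genes. The 3 X genes under 81 reads per kb were a U6, a 7SK and a SNORA17 copy.

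For the 64 partner genes RefSeq (GRCm38.p6) gave 58 promoter windows of 49 genes, from 250 bases before to 50 after a gene's start. The RUNX core motif was searched on both strands as TGTGGT and as TGCGGT, and no stretch can match both on the same strand at the same position. TGTGGT stood in 10.3% of these windows against 16.8% of all 32851 windows, TGCGGT in 17.2% against 6.45%, and either in 25.9% against 22.4%. The partner shares are 6, 10 and 15 windows, and no test was made. Windows of the same gene can overlap, and those of Chpf2 hold the same TGCGGT. The comparison is with all RefSeq promoters and not with those of listed genes. GATC, which Dam needs, stood in 29 of the 58 windows and in 48.0% of all windows. None of the 3 Egfl7 windows held either RUNX motif. The Nop56 promoter is shown because it was the one partner promoter with TGTGGT at more than 1 place. It is chr2:130274162-130274461 of GRCm38.p6, plus strand, and the capitals mark TGTGGT and its reverse complement. A match is only a run of letters, and since the regions are in mm9, whether a window lies in a region was not read.
Nop56: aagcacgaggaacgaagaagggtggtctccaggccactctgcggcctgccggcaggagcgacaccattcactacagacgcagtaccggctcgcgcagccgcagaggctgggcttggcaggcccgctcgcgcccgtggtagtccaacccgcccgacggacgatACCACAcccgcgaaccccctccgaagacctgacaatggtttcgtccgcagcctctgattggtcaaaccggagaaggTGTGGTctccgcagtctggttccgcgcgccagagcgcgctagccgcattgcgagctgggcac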

How the data were processed

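Dam-methylated DNA of 12 libraries from 2 lines was sequenced on SOLiD instruments, per the labels' protocols, and groups follow sample titles. The submitters' processing notes name mm9. The sources used here do not give the aligner, the region caller or the rule of assigning regions to genes. The authors deposited 1 table with a whole-number read count per gene, per the file headers, and a signal, the read count per kb, which equalled the deposited count over the summed region length (both ends counted) within 0.005 in all 5867 genes. There are 0 columns of values per library, so no contrast between the lines was made.

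Members were rows of the 5 biotypes, with regions split at semicolons. A region was shared when the same boundaries stood in a protein_coding or lincRNA entry. A count for the region itself was had for 222 of the 307 (72.3%), from genes with 1 region or by subtraction. The median gene had 1883 reads. Clopper-Pearson, Poisson and order-statistic intervals are at 95%. MicroRNA names were matched to RefSeq (GRCm38.p6) by symbol or synonym on the same chromosome, and clusters join hairpins within 10 kb. Genes that contain a microRNA in RefSeq were matched to entries by symbol alone. Named genes were all named microRNAs, in other biotypes the 4 highest and 2 lowest genes by reads per kb, all regions with 2 or more small RNA genes, and the partner genes of these. Further examples were chosen after their values were seen. Members, lists and rules were chosen with earlier results of these data known. Parsing, the finding of shared regions and the order-statistic interval were tested on simulated data, and the Poisson and Clopper-Pearson intervals were not. Python 3.11.15, pandas 2.3.3, SciPy 1.17.1 and matplotlib 3.10.9 were used.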

Additional observations from a re-analysis of the deposited data

How the results depend on the processing

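No paired analysis was possible because the table holds no values per library, and no library could be left out. Of 45 alternatives, 39 stayed within the interval of the main value, or within 1.5 times of it for a count. Some of the 39 could not move. No listed regions overlap, so counting any overlap as shared gave the same share. Counting identical region sets once removed no snRNA, misc_RNA or rRNA gene. The exceptions left out genes by name or by reads per kb itself. With only named small RNA genes 32 distinct regions were left of 307, and with only genes above the median reads per kb 145, whose median width was 2300.0 bp in place of 2050 bp. Leaving out genes under the lower quartile, which raises a median by construction, gave a median reads per kb of 833 for miRNA, 842 for snRNA and 789 for all small RNA genes. The median of miRNA genes was 705 with single-region genes, 655.5 without those that have a partner, 731 scaled to the chromosome median and 729 on autosomes alone. The autosome alternative, for each biotype and for all small RNA genes, was added after seeing the data. The share of regions with a partner was 14.0% with protein-coding partners alone. With 12 reads, the depth at n-R5s1 allows little precision.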
